A study of Homo sapiens with 16 samples.

Results

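MDA-MB-436 cells that had been sorted for high activity of a Wnt reporter (7TGP-POS) were compared with MDA-MB-436 cells sorted for its absence (7TGP-NEG) after culture in low serum, over all genes. The comparison rests on 4 of the 16 RNA-Seq libraries of the series, namely the 2 of 7TGP-POS and the 2 of 7TGP-NEG in the count table of the low serum cultures. The remaining libraries are sublines of MDA-MB-231 that were made the same way, and both pairs of sublines in standard serum. MDA-MB-436 is an established triple-negative breast cancer cell line with a mesenchymal phenotype, which per the study's methods carries a mutation of BRCA1. Both groups carried the 7TGP plasmid, in which 7 TCF-binding sites and a minimal promoter drive eGFP, beside a puromycin resistance cassette, and both had been selected with puromycin at 3 µg/mL. From the transfected line, the brightest eGFP-positive and the dimmest eGFP-negative cells were isolated and expanded in repeated rounds of sorting in medium with 10% FBS. For low serum cultures, cells were seeded in medium with 0.5% FBS and harvested on day 3, each group as biological duplicates.

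Some features of this model limit what the comparison can show. Each group is a single sorted and expanded subline, so differences that travelled with the sublines through sorting cannot be told apart from differences in reporter activity. The replicates come from the same subline, and p-values measure the spread between these cultures. The reporter's eGFP transcript is not part of the annotation on which reads were counted and was not analysed here, so the sort itself has no check in these values.

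In canonical Wnt signalling, a Wnt ligand binds a Frizzled receptor with LRP5 or LRP6, the destruction complex built on AXIN and APC no longer degrades β-catenin, and β-catenin joins TCF/LEF factors on target genes. Several targets act back on the pathway. AXIN2, RNF43, ZNRF3, NKD1, NOTUM and DKK1 restrain it, and LGR5 binds the R-spondins that enhance it. In breast cancer the pathway is known for its ties to mesenchymal and stem-like cell states.

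The 4 libraries held between 27918418 and 32667756 counts on genes, and expression is given as CPM, the counts scaled to this total. The median SD between replicates was 0.0455 on the log2 scale in 7TGP-NEG and 0.0513 in 7TGP-POS, and in both groups the replicates differed by more than counting noise. MDA-MB-436 markers fitted the labels: ESR1, the estrogen receptor, was at 0.184 and 0 CPM in 7TGP-NEG and at 0.221 and 0.43 CPM in 7TGP-POS, and CDH1 (E-cadherin) had 3, 2, 2 and 5 counts. VIM (vimentin) was at 659 and 684 CPM in 7TGP-NEG and at 758 and 760 CPM in 7TGP-POS. Among the 16 genes of a breast subtype and cell line list, 2 were DEGs, both lower in 7TGP-POS, among them PGR, the progesterone receptor. Markers of other cells were low: over 8 leukocyte genes the summed level was 10.7 and 10.9 CPM in 7TGP-NEG and 12.6 and 13.5 CPM in 7TGP-POS, mostly CD14 and ITGAM, while the pan-leukocyte gene PTPRC had 10, 10, 7 and 5 counts and CD3D 0, 0, 1 and 1. Of these 8 genes ITGAM was a DEG, lower in 7TGP-POS with a log2 fold change of -1.22. Of 8 endothelial genes, CLDN5 was the only DEG and was higher (2 higher and 2 lower by edgeR's adjusted p), and CDH5, the defining cadherin of these cells, had 4, 0, 2 and 1 counts. Of 8 neuronal and glial genes, SNAP25 and GFAP were DEGs higher (GFAP with 8 and 2 counts against 21 and 9, and no longer called without replicate 2 of 7TGP-NEG or replicate 1 of 7TGP-POS, at 1.02 and 0.89), and the neuronal gene RBFOX3 had 5, 3, 2 and 2 counts. None of 13 mitochondrial transcripts passed the test, with sums of 5624 and 4493 CPM in 7TGP-NEG and 4966 and 6860 CPM in 7TGP-POS.

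Of 16069 protein-coding genes tested, 1694 (10.5%) were differentially expressed genes (DEGs). Expression of 1047 was higher (6.52%) and of 647 lower (4.03%) in 7TGP-POS. A DEG passed the quasi-likelihood test of edgeR at 0.05, adjusted after Benjamini and Hochberg over all genes tested, and changed by at least 1 on the log2 scale in either direction; all log2 fold changes are 7TGP-POS minus 7TGP-NEG, with their standard errors. By the adjusted p alone 8348 genes (52%) passed, 4277 higher (26.6%) and 4071 lower (25.3%), and the median log2 fold change of all genes was 0.01. Most DEGs changed moderately: 1015 had an absolute log2 fold change of 1 to 2 and 453 of 2 to 4. The other 226 changed by at least 4 on the log2 scale, and 200 of these were higher in 7TGP-POS and 26 lower. With DESeq2's size factors in place of TMM 1000 were higher and 693 lower. On the authors' TPM values, where limma-trend on log2(TPM + 1) changed the scaling, the added value of 1 and the test together, the median of all genes was -0.15, and 322 genes were called higher and 471 lower.

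The same sublines in standard serum (10% FBS, harvested on day 6) were processed apart, and serum, days in culture and sequencer differed together (the labels name 1 library kit for all samples, while the study's methods give low serum a kit of its own, with rRNA depletion in place of poly(A) selection), so the serum conditions were set side by side without a test between them. Of 1643 low serum DEGs that were also tested in standard serum, 1564 had the same sign there and 1104 were DEGs in the same direction, 648 higher and 456 lower. These made up 67.2% of the former, and 57.5% of the 1920 DEGs of standard serum that low serum also tested. In standard serum 1932 of 15414 genes tested (12.5%) were DEGs, 998 higher (6.47%) and 934 lower (6.06%). Only 6 genes were DEGs in opposite directions: IFITM1, TRIM22, OAS2, XAF1 and CLDN5 were higher in low serum and lower in standard serum, and PTPN20B, a phosphatase gene with a near-identical copy, the reverse. PTPN20B had 19 and 22 counts against 9 and 10 and lost its low serum call when any 1 of the 4 libraries was left out (log2 fold changes -1.28 to -0.86). MDA-MB-231 had 948 DEGs in low serum (5.9%), of which 563 (3.5%) were higher and 385 (2.4%) lower. There 126 genes were higher and 42 lower in common with MDA-MB-436, while 93 genes were DEGs with opposite signs in the cell lines. A test of the difference between the cell lines gave 1884 interaction DEGs (11.7%), and 991 of the MDA-MB-436 DEGs (58.5%) were among them.

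**Figure D1:**
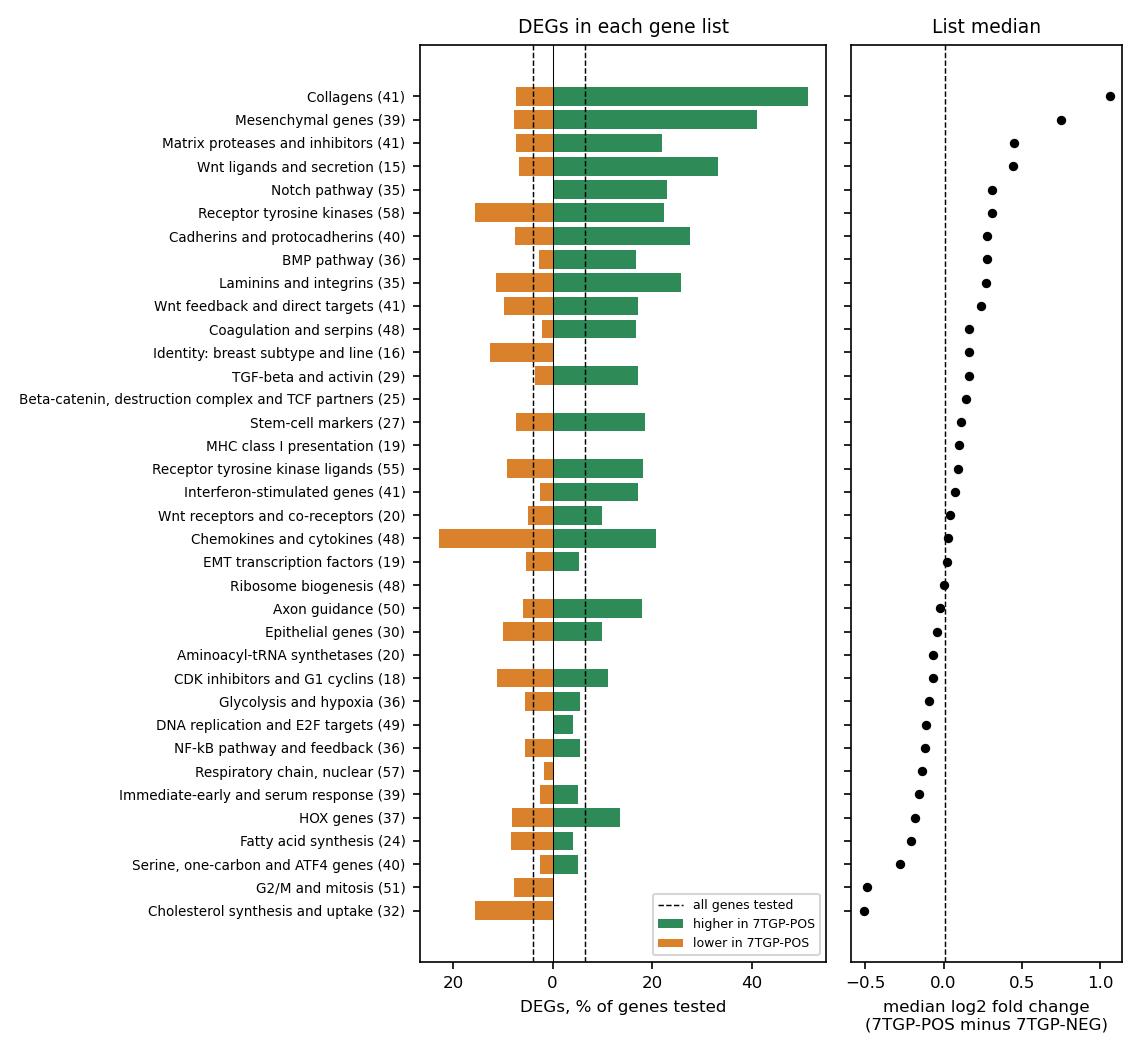
Share of DEGs in each gene list (bars, percent of genes tested, higher in 7TGP-POS to the right and lower to the left) and median log2 fold change of the list (points), with the number of genes tested in parentheses and the values over all genes tested as dashed lines. Collagens (51.2% higher, median 1.06) and mesenchymal genes (41% higher, median 0.75) lie at the top and cholesterol genes (15.6% lower, median -0.51) at the bottom; on log2(TPM + 1) the median of all genes was -0.15, and 13 of 41 list medians differed in sign between TMM, DESeq2's size factors and log2(TPM + 1), which also adds 1 to each value.

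Wnt genes moved in both directions. The clearest change was in DKK1, a secreted Wnt antagonist and a target of the pathway (chromosome 10, 54074041 to 54077802 on GRCh37), which was at 23.3 and 21.2 CPM in 7TGP-NEG and at 96.4 and 97.3 CPM in 7TGP-POS. Both 7TGP-POS libraries lay far above both 7TGP-NEG libraries, with a log2 fold change of 2.11 ± 0.06 (adjusted p = 7.90e-29), and in standard serum it was 1.78. The difference was larger than in MDA-MB-231, where DKK1 rose by 0.29 (interaction adjusted p = 2.83e-22). SP5, a transcription factor gene known as a direct target of β-catenin and TCF, went the other way: it was at 4.16 and 4.09 CPM in 7TGP-NEG and at 2.59 and 2.94 CPM in 7TGP-POS, a log2 fold change of -0.59 ± 0.16 (adjusted p = 0.0024) that is below the DEG threshold. It was also lower in MDA-MB-231 (-0.55) and in standard serum (-1.13).

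Both genes carry the core of the TCF/LEF site, CTTTGA on either strand (TCAAAG on the other), more than once in the 250 bases before their start. The stretches are shown because these 2 targets of the same pathway moved in opposite directions. They are from RefSeq promoters on GRCh38.p14, plus strand, with matches to the core in capitals; DKK1 is at chr10:52314031-52314280 and SP5 at chr2:170715087-170715336.
DKK1: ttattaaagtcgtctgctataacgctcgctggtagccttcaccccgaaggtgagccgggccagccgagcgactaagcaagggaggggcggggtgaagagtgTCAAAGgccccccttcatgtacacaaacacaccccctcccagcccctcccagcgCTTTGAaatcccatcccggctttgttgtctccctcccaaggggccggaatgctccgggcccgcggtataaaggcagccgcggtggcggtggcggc
SP5: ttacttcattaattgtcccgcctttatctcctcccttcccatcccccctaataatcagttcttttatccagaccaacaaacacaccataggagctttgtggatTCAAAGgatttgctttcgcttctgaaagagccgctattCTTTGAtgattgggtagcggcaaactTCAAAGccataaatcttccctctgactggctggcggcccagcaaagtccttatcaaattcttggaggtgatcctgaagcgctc
In DKK1 the 2 matches begin 149 and 95 bases before the start, and in SP5 the 3 matches begin 147, 109 and 83 bases before it. Over 27305 promoter records, 11.4% held at least 1 match in a stretch of this length, 1.02% at least 2 and 0.0696% at least 3. A match of these letters is a description and no evidence of binding.

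Of 41 genes of Wnt feedback and direct targets, 7 were DEGs higher and 4 lower in 7TGP-POS, with a median log2 fold change of 0.24. Beside DKK1, the higher ones included EDN1, the endothelin 1 precursor (1.13 and 0.978 CPM against 3.44 and 3.44 CPM, log2 fold change 1.68 ± 0.19, adjusted p = 5.32e-10). SOX9, a transcription factor of progenitor cells, and VCAN, the matrix proteoglycan versican, lay near the threshold: SOX9 was at 27.4 and 29.4 CPM against 55.4 and 61.6 CPM (1.03 ± 0.064), and fell under it without replicate 1 of 7TGP-NEG (0.96) or replicate 2 of 7TGP-POS (0.94), and VCAN (1.14 ± 0.11) was at 0.99 without replicate 2 of 7TGP-NEG. TNFRSF19, a TNF receptor of stem cells, rose by 1.38, and the protease gene MMP7, with 4 and 5 counts against 15 and 10, lost its call when any 1 of the 4 libraries was left out (log2 fold changes 1.19 to 1.74). The Notch ligand JAG1 is described with its pathway. The lower ones were NKD2, SP8, NKD1 and MSX2. NKD2, a Dishevelled-binding inhibitor, was at 24.1 and 23.5 CPM in 7TGP-NEG and at 3.85 and 4.08 CPM in 7TGP-POS (-2.60 ± 0.12, adjusted p = 4.38e-22), in a stretch of chromosome 5 where the median log2 fold change of the 50 neighbouring genes was -1.33. SP8, a relative of SP5, was at 14.9 and 16.9 CPM against 3.22 and 3.83 CPM (-2.19 ± 0.13, adjusted p = 9.60e-18). NKD1 was at 3.21 and 3.25 CPM against 1.48 and 1.33 CPM (-1.21 ± 0.22, adjusted p = 1.00e-05).

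Of the Wnt genes fixed by name, NKD1 was a DEG and was lower in 7TGP-POS, as given above (-1.21 ± 0.22, edgeR adjusted p = 1.00e-05). AXIN2, ZNRF3, RNF43, LGR5 and NOTUM, which are also often used to read Wnt activity, were no DEGs. SP5, LEF1, TCF7 and CTNNB1 were no DEGs either. AXIN2 was at 2.05 and 2.3 CPM in 7TGP-NEG and at 3.06 and 2.51 CPM in 7TGP-POS, higher in both libraries but with an adjusted p of 0.106 (log2 fold change 0.36 ± 0.18). ZNRF3 was at 25.3 and 25.7 CPM against 29.9 and 28.5 CPM (0.19 ± 0.078, adjusted p = 0.0417). RNF43, LGR5 and NOTUM were all under 1.1 CPM and did not pass, with log2 fold changes of -0.86 ± 0.61, 0.28 ± 0.37 and -0.37 ± 0.46 and adjusted p of 0.253, 0.563 and 0.535. Their standard errors are wide, and LGR5 ranged from -0.23 to 0.70 with 1 library left out, so no direction is read for these genes.

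No member of the 25 genes of β-catenin, its destruction complex and TCF partners was a DEG, although 11 were higher and 5 lower by the adjusted p, with a median of 0.14. CTNNB1, which encodes β-catenin, was at 282 and 273 CPM in 7TGP-NEG and at 453 and 440 CPM in 7TGP-POS (0.67 ± 0.052, adjusted p = 1.78e-14). It lies on 3p, where the median of its 50 neighbours was 0.59. LEF1 was at 12.2 and 12.6 CPM against 17.2 and 18.3 CPM (0.50 ± 0.092, adjusted p = 1.36e-05), and TCF7 at 10.9 and 11 CPM against 10.2 and 9.49 CPM (-0.16 ± 0.11, adjusted p = 0.23). LEF1 was thus higher in both 7TGP-POS libraries and no difference was detected in TCF7.

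Among 15 genes for Wnt ligands and their secretion, 5 were DEGs higher and 1 lower, with a median of 0.44. WNT5A, which signals mostly without β-catenin, was at 34.9 and 34 CPM in 7TGP-NEG and at 72.4 and 75.4 CPM in 7TGP-POS (1.09 ± 0.063, adjusted p = 2.02e-18). WNT7B was at 8.23 and 9.39 CPM against 20 and 19.9 CPM (1.17 ± 0.085, adjusted p = 3.00e-15), and WNT6 at 2.08 and 2.62 CPM against 7.58 and 6.77 CPM (1.61 ± 0.17, adjusted p = 1.03e-10). The canonical ligand WNT3A was the lower one, at 2.17 and 1.78 CPM against 0.569 and 0.537 CPM (-1.85 ± 0.32, adjusted p = 3.83e-06). WNT10A and WNT7A rested on few counts, with adjusted p of 0.00238 and 0.0205. WNT10A lost its call without replicate 2 of 7TGP-NEG or replicate 1 of 7TGP-POS (log2 fold changes 1.24 and 1.23), and WNT7A without either of these or replicate 1 of 7TGP-NEG (1.74, 1.03 and 1.93).

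Of 20 receptors and co-receptors, ROR2 and LGR6 were DEGs higher and FZD10 lower, with a median of 0.04. ROR2, a receptor for WNT5A, was at 3.18 and 2.55 CPM in 7TGP-NEG and at 8.91 and 8.02 CPM in 7TGP-POS (1.54 ± 0.16, adjusted p = 4.92e-11). FZD10, a Frizzled receptor, had 51 and 50 counts in 7TGP-NEG and 1 and 3 in 7TGP-POS, at least 16.4-fold lower against a floor of 3 counts per library (adjusted p = 6.39e-10). It was also lower in standard serum (log2 fold change -5.33). In MDA-MB-231 FZD10 was nearly absent, at 0.0326 and 0 CPM in 7TGP-NEG and at 0.0668 and 0.0705 CPM in 7TGP-POS. The edgeR fit gave 1.83 there (adjusted p = 0.336), and the difference between the lines passed the test (interaction -6.37, adjusted p = 0.00135). Both values rest on these few counts, so no response of MDA-MB-231 is read from them. Of 11 secreted modulators, DKK2 and RSPO3 were higher and RSPO2 lower. DKK2 was at 0.735 and 0.663 CPM against 4.49 and 4.3 CPM (2.63 ± 0.24, adjusted p = 1.45e-12), while RSPO3, an R-spondin (1.14 ± 0.21), was at 0.94 without replicate 2 of 7TGP-NEG or replicate 1 of 7TGP-POS.

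**Figure D2:**
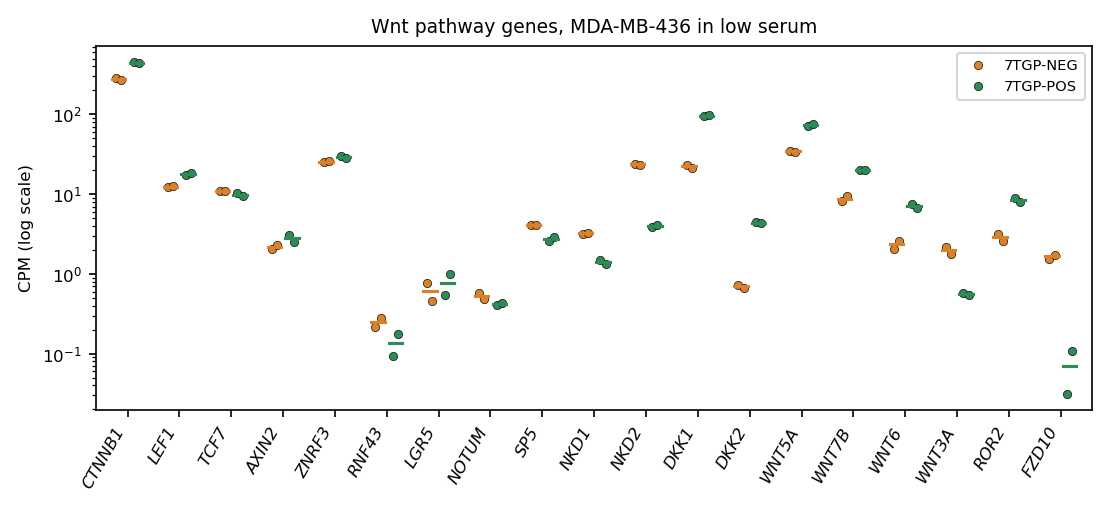
CPM on a log scale of Wnt pathway genes in each low serum library of MDA-MB-436 7TGP-NEG (orange) and 7TGP-POS (green), with horizontal lines at the mean of n = 2. DKK1 lies at 96.4 and 97.3 CPM in 7TGP-POS against 23.3 and 21.2 CPM in 7TGP-NEG, NKD2 and FZD10 lie far lower in 7TGP-POS, and the libraries of AXIN2, TCF7 and LGR5 lie close together.

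Genes of the extracellular matrix were higher in 7TGP-POS in large part. Collagens form the fibrils, sheets and anchoring filaments of the matrix, and of 41 collagen genes tested 21 were DEGs higher and 3 lower in 7TGP-POS, with a median log2 fold change of 1.06. On the TPM scale the median was 0.10 and 13 of the collagen genes were called. COL12A1, a collagen associated with fibrils (chromosome 6, 75794042 to 75915983 on GRCh37), was at 21.3 and 23.8 CPM in 7TGP-NEG and at 244 and 251 CPM in 7TGP-POS (3.44 ± 0.067, adjusted p = 6.38e-28). COL14A1, of the same class, was at 20.5 and 20.4 CPM against 133 and 142 CPM (2.74 ± 0.065, adjusted p = 1.96e-31), and COL3A1, a fibril collagen, at 0.49 and 0.559 CPM against 11.4 and 13.7 CPM (4.56 ± 0.19, adjusted p = 1.07e-22). COL5A2, COL8A1, COL13A1 and COL6A1 were also higher, with log2 fold changes of 2.94, 2.00, 3.16 and 1.04; COL6A1 was at 0.94 without replicate 2 of 7TGP-POS. Against this direction, COL22A1 was at 45.9 and 43.9 CPM in 7TGP-NEG and at 3.57 and 4.3 CPM in 7TGP-POS (-3.53 ± 0.11, adjusted p = 6.23e-28). In standard serum 12 collagen genes were DEGs higher and 2 lower among 39 tested, and in MDA-MB-231 in low serum 5 were higher and 1 lower.

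Of 39 mesenchymal genes 16 were DEGs higher and 3 lower, with a median of 0.75, and their summed level was 2993 and 3003 CPM in 7TGP-NEG and 4799 and 4803 CPM in 7TGP-POS. FBLN1 and FBLN2 encode fibulins, which bind fibronectin and basement membranes. FBLN1 was at 22.4 and 22.6 CPM in 7TGP-NEG and at 218 and 229 CPM in 7TGP-POS (3.30 ± 0.061, adjusted p = 4.83e-35), and FBLN2 at 128 and 126 CPM against 679 and 668 CPM (2.40 ± 0.05, adjusted p = 3.36e-33). FN1 (fibronectin) was at 140 and 137 CPM against 360 and 364 CPM (1.37 ± 0.052, adjusted p = 1.42e-24). TGFBI, NT5E, SPARC, CCN2 and LOX rose by 2.69, 1.70, 2.97, 2.51 and 2.08 on the log2 scale. LOXL1 cross-links elastin and collagen; it had 3 and 0 counts in 7TGP-NEG and 401 and 394 in 7TGP-POS, at least 136-fold higher (adjusted p = 5.61e-26). MYL9, a myosin light chain, and POSTN (periostin) were likewise at the floor in 7TGP-NEG and at least 70.6-fold and 11.4-fold higher. S100A4, a calcium-binding protein of motile cells, was lower, at 106 and 115 CPM against 42.6 and 38.5 CPM (-1.46 ± 0.06, adjusted p = 5.88e-22).

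A list of 19 regulators of epithelial-mesenchymal transition (EMT) held drivers of EMT and also the epithelial factors OVOL2, GRHL2, ESRP1 and ESRP2. Of the 19 genes 1 was a DEG higher (KLF8) and 1 lower (OVOL2), with a median of 0.02. This is the same share (10.5%) as over all genes tested. Both calls rested on few counts. KLF8 lost its call without replicate 1 of 7TGP-NEG (1.14) or replicate 2 of 7TGP-POS (1.47), and OVOL2 without replicate 2 of 7TGP-POS (-0.85). ZEB1 was at 47.4 and 41.7 CPM in 7TGP-NEG and at 38.9 and 39.1 CPM in 7TGP-POS (-0.21 ± 0.061, adjusted p = 0.00427), and ZEB2 at 58.1 and 60 CPM against 80.8 and 83.3 CPM (0.46 ± 0.057, adjusted p = 4.62e-09). TWIST1 was at 0.50 and SNAI2 at -0.68 on the log2 scale. CDH2 (N-cadherin), at 218 and 212 CPM against 229 and 224 CPM, did not pass (0.06 ± 0.049, adjusted p = 0.286). Of 30 epithelial genes 3 were higher, among them KRT5, and 3 lower (LAMB3, JUP and KRT14), with a median of -0.04. LAMB3, a laminin chain of epithelial basement membranes, fell from 98.6 and 95.2 CPM to 31.8 and 30.6 CPM (-1.65 ± 0.057, adjusted p = 1.10e-25). JUP, which encodes the junction protein plakoglobin, was at 50.7 and 50.9 CPM against 17.7 and 18.9 CPM (-1.49 ± 0.065, adjusted p = 1.75e-22). The keratin genes KRT5 and KRT14 were under 1 CPM in every library, and KRT14 lost its call without replicate 1 of either group (-1.56 and -1.04).

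Genes that anchor cells to the matrix and cut it changed in both directions. Among 35 laminins and integrins 9 were DEGs higher and 4 lower (median 0.27). LAMA4, a laminin chain of vessel and muscle basement membranes, was at 1.53 and 1.85 CPM in 7TGP-NEG and at 57.9 and 57.3 CPM in 7TGP-POS (5.08 ± 0.11, adjusted p = 1.60e-32). LAMB2 rose by 1.23 (neighbour median 0.48, on 3p) and LAMB1 by 1.04, which was at the threshold without replicate 1 of 7TGP-POS (1.00). ITGA4, a fibronectin receptor chain, rose from 16.4 and 16.4 CPM to 45.1 and 45.7 CPM (1.46 ± 0.077, adjusted p = 1.65e-19), and ITGA2, a collagen receptor chain, fell from 70.1 and 68.5 CPM to 32.8 and 35 CPM (-1.05 ± 0.057, adjusted p = 2.80e-19). Of 41 matrix proteases and inhibitors 9 were higher and 3 lower (median 0.45). MMP2 (gelatinase A) was at 4.07 and 3.84 CPM in 7TGP-NEG and at 81.6 and 77 CPM in 7TGP-POS (4.31 ± 0.096, adjusted p = 1.83e-32), whereas ADAMTS9, a secreted protease of proteoglycans, was at 95 and 85.5 CPM against 36.1 and 38.3 CPM (-1.29 ± 0.06, adjusted p = 1.87e-21). ADAMTS9 rose by 0.74 in MDA-MB-231, and the difference between the lines passed the test (interaction adjusted p = 1.87e-22).

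Among 48 genes of coagulation and serpins, which share proteins with the wounded matrix, 8 were higher and 1 lower (F2RL2, with 8 and 8 counts against 1 and 3), with a median of 0.16. F2RL2 lost its call when replicate 1 or 2 of 7TGP-NEG or replicate 1 of 7TGP-POS was left out (-2.01, -1.80 and -1.32). THBS1 (thrombospondin 1, a matrix glycoprotein that activates latent TGF-β) was at 47.5 and 46.7 CPM in 7TGP-NEG and at 304 and 319 CPM in 7TGP-POS (2.71 ± 0.056, adjusted p = 2.19e-33). F2R, the thrombin receptor, SERPINE2, a thrombin inhibitor, and F3 (tissue factor) rose by 2.05, 1.15 and 1.20. Thrombin's receptor, its inhibitor and the initiator of the cascade were thus higher, and so was TFPI, the tissue factor pathway inhibitor. By edgeR's adjusted p 17 genes of the list were higher and 11 lower.

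**Figure D3:**
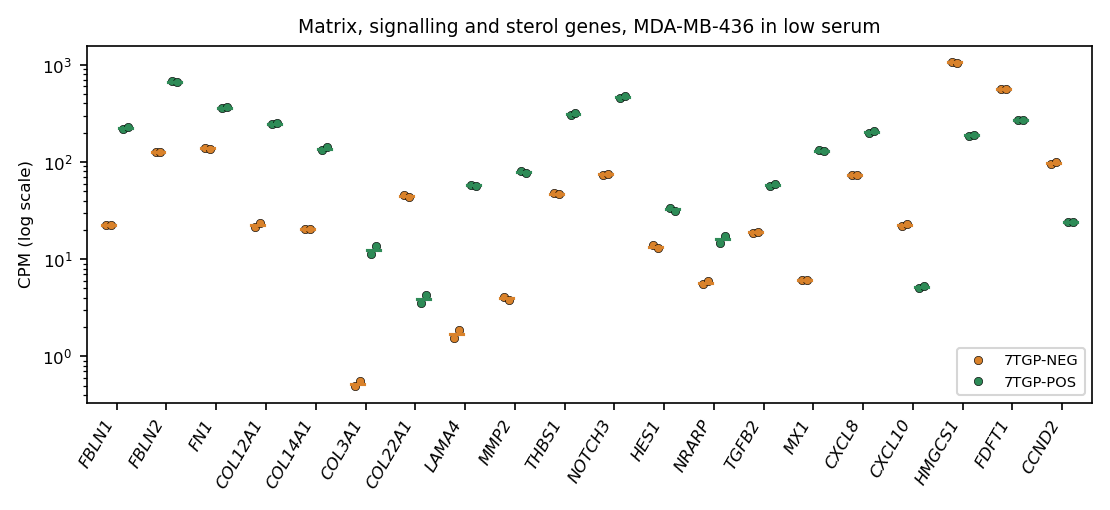
CPM on a log scale of matrix, signalling, chemokine, sterol and cell cycle genes in each low serum library of 7TGP-NEG (orange) and 7TGP-POS (green), with horizontal lines at the mean of n = 2. COL12A1 rises from 21.3 and 23.8 to 244 and 251 CPM and NOTCH3 from 73.3 and 75.6 to 461 and 474 CPM, while COL22A1, CXCL10, HMGCS1, FDFT1 and CCND2 lie lower in 7TGP-POS.

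The Notch genes that passed the threshold were all higher in 7TGP-POS. Notch receptors are cut after binding a ligand of the JAG or DLL families on a neighbouring cell, and the freed domain activates HES and HEY genes with RBPJ and MAML proteins. Of 35 Notch pathway genes 8 were DEGs higher and 0 lower (20 higher and 4 lower by the adjusted p from edgeR), with a median of 0.31; with limma-trend on log2(TPM + 1) 2 of the list were called. The receptor gene NOTCH3 (chromosome 19, 15269849 to 15311806 on GRCh37) was at 73.3 and 75.6 CPM in 7TGP-NEG and at 461 and 474 CPM in 7TGP-POS (2.64 ± 0.052, adjusted p = 4.58e-34). Its change differed from that in MDA-MB-231, where it was lower by the adjusted p (-0.41, interaction adjusted p = 1.43e-25), and in standard serum it was 1.04. NOTCH1 was at 113 and 108 CPM against 115 and 132 CPM (0.15 ± 0.09, adjusted p = 0.21).

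Among ligands, JAG1 was at 13.4 and 13.9 CPM in 7TGP-NEG and at 28 and 28.1 CPM in 7TGP-POS (1.03 ± 0.07, adjusted p = 3.61e-16), and dropped under the threshold without replicate 1 of 7TGP-NEG (0.98) or of 7TGP-POS (0.97). DLL1 rose by 1.23 ± 0.18 (adjusted p = 1.93e-07). The target HES1 was at 13.9 and 13 CPM against 33.8 and 31.1 CPM (1.26 ± 0.084, adjusted p = 2.46e-16). NRARP, a target that limits the pathway, was at 5.54 and 5.94 CPM against 14.8 and 17.4 CPM (1.47 ± 0.12, adjusted p = 3.28e-14), and HEYL at 0.184 and 0.105 CPM against 1.61 and 1.43 CPM (3.33 ± 0.42, adjusted p = 1.07e-08). MAML3, a co-activator, rose by 1.51, and DTX1, with 1 and 0 counts in 7TGP-NEG, was at least 9.68-fold higher. A receptor, a pair of ligands, a co-activator and several targets were higher in the same libraries.

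The 250 bases before the start of HES1 (chr3:194135898-194136147 of GRCh38.p14, plus strand, from RefSeq) are shown as the classical Notch target of this list. Capitals mark the core of the RBPJ site, TGGGAA, searched on both strands (TTCCCA on the other).
HES1: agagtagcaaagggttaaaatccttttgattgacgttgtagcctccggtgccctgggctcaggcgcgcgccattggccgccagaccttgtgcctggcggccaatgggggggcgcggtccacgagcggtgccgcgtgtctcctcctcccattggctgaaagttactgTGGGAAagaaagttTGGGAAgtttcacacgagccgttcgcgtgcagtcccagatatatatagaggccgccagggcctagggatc
The 2 matches begin 84 and 70 bases before the start. Over all 27305 records 21.1% held at least 1 such match and 2.92% at least 2, so a single match is common.

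In the TGF-β and activin list 5 of 29 genes were DEGs higher and 1 lower, with a median of 0.16. The receptor gene TGFBR2 was at 62.7 and 60 CPM in 7TGP-NEG and at 160 and 162 CPM in 7TGP-POS (1.38 ± 0.053, adjusted p = 2.69e-24; neighbour median 0.63, on 3p), and the ligand gene TGFB2 at 18.8 and 19.2 CPM against 56 and 58.7 CPM (1.58 ± 0.064, adjusted p = 1.89e-23). ACVR2B, an activin receptor also on 3p (neighbour median 0.59), rose by 1.16, INHBA, the activin A subunit, by 1.72, and TGFB3 by 1.01, which was under the threshold without replicate 1 of 7TGP-NEG (0.97) or replicate 2 of 7TGP-POS (0.87). INHBB, the activin B subunit, fell by 1.64 ± 0.31 on the log2 scale. INHBA and INHBB thus moved in opposite directions, as they did in standard serum (4.46 and -1.85).

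Of 36 BMP pathway genes 6 were higher and 1 lower (median 0.28). BMP4 was at 0.52 and 1.08 CPM in 7TGP-NEG and at 5.69 and 6.7 CPM in 7TGP-POS (2.96 ± 0.18, adjusted p = 4.26e-15), and BMP5 at 0.122 and 0.105 CPM against 2.53 and 3.51 CPM (4.65 ± 0.38, adjusted p = 1.33e-13). SMAD6, an inhibitor that BMP signalling induces, rose from 7.74 and 7.96 CPM to 17.6 and 20.7 CPM (1.27 ± 0.1, adjusted p = 3.45e-14). ACVRL1, a BMP receptor of endothelium, was the lower one, with 30 and 19 counts against 4 and 5 (-2.38 ± 0.52, adjusted p = 0.000168). In MDA-MB-231 ACVRL1 rose by 4.22, and the difference between the lines passed the test (interaction adjusted p = 2.31e-06).

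Receptor tyrosine kinases pass growth factor signals into the cell, and 13 of 58 were DEGs higher and 9 lower in 7TGP-POS (median 0.31). EPHB4, an ephrin receptor, was at 84.3 and 85.3 CPM in 7TGP-NEG and at 198 and 200 CPM in 7TGP-POS (1.22 ± 0.051, adjusted p = 4.34e-23; neighbour median 0.72, on 7q). PDGFRB was at 0.827 and 0.559 CPM against 4.23 and 3.9 CPM (2.52 ± 0.22, adjusted p = 4.64e-13), and FLT1, a VEGF receptor, at 0.673 and 0.384 CPM against 3.79 and 3.73 CPM (2.78 ± 0.26, adjusted p = 4.28e-12). RET, the receptor of the GDNF family, was lower, at 18.5 and 17.3 CPM against 4.55 and 3.87 CPM (-2.09 ± 0.13, adjusted p = 1.18e-17). The FGF receptors split, with FGFR3 higher by 1.46 and FGFR2 at -1.01, which was at -0.94 without replicate 2 of 7TGP-NEG.

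Of 55 ligands of these receptors 10 were higher and 5 lower (median 0.09). EFNB3, an ephrin and so a ligand of EPHB receptors, was at 1.81 and 1.33 CPM in 7TGP-NEG and at 33 and 35.5 CPM in 7TGP-POS (4.42 ± 0.13, adjusted p = 1.13e-28). ARTN (artemin), of the GDNF family, rose from 0.184 and 0.21 CPM to 4.55 and 5.3 CPM (4.61 ± 0.28, adjusted p = 9.18e-18) while RET fell. The PDGF genes PDGFA, PDGFB and PDGFC rose by 1.11, 1.56 and 1.19, and PDGFD was also a DEG higher. Of the PDGF receptor genes, PDGFRB was higher, while PDGFRA was no DEG. EREG (epiregulin), a ligand of the EGF receptor, was at 102 and 97.6 CPM against 42.4 and 44.1 CPM (-1.22 ± 0.059, adjusted p = 8.49e-21), and KITLG, the KIT ligand, at 4.29 and 4.23 CPM against 0.916 and 0.824 CPM (-2.29 ± 0.21, adjusted p = 4.80e-12). In standard serum EREG was at 0.07 and did not pass the test (adjusted p = 0.457).

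In the axon guidance list, whose semaphorins and plexins also steer cell migration, 9 of 50 genes were higher and 3 lower (median -0.02). SEMA3C was at 80.8 and 85.2 CPM in 7TGP-NEG and at 327 and 338 CPM in 7TGP-POS (1.99 ± 0.053, adjusted p = 8.33e-30), and its relatives SEMA3A, SEMA3D and SEMA3E rose by 2.32, 2.21 and 2.50. These 4 genes lie together on 7q, where the median log2 fold change of their 50 neighbours was 0.98 to 0.99. PLXNA2, a semaphorin receptor outside that region, rose from 14.4 and 11.2 CPM to 30.3 and 29.3 CPM (1.20 ± 0.083, adjusted p = 2.45e-14), and in MDA-MB-231 it fell by 1.43 (interaction adjusted p = 2.21e-20). Of 40 cadherins and protocadherins 11 were higher and 3 lower (median 0.28). CDH13 (T-cadherin) rose from 9.86 and 9.15 CPM to 31.6 and 34.4 CPM (1.78 ± 0.092, adjusted p = 6.20e-20) and FAT3 from 2.2 and 2.48 CPM to 11.4 and 12.6 CPM (2.34 ± 0.14, adjusted p = 2.69e-18). PCDH18 was at the floor in 7TGP-NEG and at least 30.4-fold higher, and PCDH17 at the floor in 7TGP-POS and at least 17.7-fold lower.

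Chemokines and cytokines were a divided group, with 10 of 48 genes higher and 11 lower and a median of 0.03. Ligands of CXCR2, which attract neutrophils, moved in both directions. CXCL1 was at 64 and 64.7 CPM in 7TGP-NEG and at 175 and 167 CPM in 7TGP-POS (1.40 ± 0.054, adjusted p = 3.98e-24), CXCL8 at 73.4 and 72.7 CPM against 197 and 208 CPM (1.46 ± 0.06, adjusted p = 3.14e-18), and CXCL6 had 0 counts in both 7TGP-NEG libraries and 200 and 149 in 7TGP-POS, at least 59.3-fold higher. CXCL5, of the same receptor, was a DEG lower, at 10.7 and 10.8 CPM against 5.4 and 4.48 CPM (-1.13 ± 0.13, adjusted p = 2.00e-09), and CXCL2 (0.08) and CXCL3 (0.43) were no DEGs. Chemokines that attract T cells were also divided. CXCL10, a ligand of CXCR3, was at 22 and 23.2 CPM against 5.06 and 5.34 CPM (-2.13 ± 0.11, adjusted p = 1.08e-19), CXCL11, of the same receptor, was at -2.22 ± 0.17, and CCL20 fell from 38.2 and 38.3 CPM to 15.8 and 15.5 CPM (-1.30 ± 0.083, adjusted p = 5.55e-17). CX3CL1 (fractalkine) rose from 0.245 and 0.21 CPM to 1.48 and 2.29 CPM (3.00 ± 0.36, adjusted p = 3.48e-09). IL11, a cytokine of the IL6 family, rose from 0.643 and 0.838 CPM to 6.76 and 8.42 CPM (3.34 ± 0.17, adjusted p = 3.43e-20). In MDA-MB-231 21 of the 48 genes were DEGs higher and 1 lower, and CXCL10 rose there by 1.82 (interaction adjusted p = 1.89e-15).

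Among 36 genes of the NF-κB pathway and its feedback 2 were higher and 2 lower (median -0.12), and 9 were higher and 15 lower by edgeR's adjusted p. The share of DEGs, 11.1%, was near the 10.5% over all genes tested. TLR4, the endotoxin receptor, was at 0.673 and 0.524 CPM in 7TGP-NEG and at 8.94 and 8.02 CPM in 7TGP-POS (3.80 ± 0.17, adjusted p = 4.14e-22), and TLR2, at 0 counts in 7TGP-NEG, had 6 and 10 in 7TGP-POS. TRAF1 and TNIP3, both induced by NF-κB, fell by 1.26 and 1.83 on the log2 scale. None of 19 genes of MHC class I presentation was a DEG (8 higher and 7 lower by edgeR's adjusted p), and their sum was 6956 and 6992 CPM against 5626 and 5534 CPM.

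Interferon-stimulated genes were divided in low serum and mostly lower in standard serum, with no test between the conditions. In low serum 7 of 41 were DEGs higher and 1 lower (16 higher and 15 lower by edgeR's adjusted p), with a median of 0.07 that was -0.18 on log2(TPM + 1). In standard serum 1 was higher and 30 lower, with a median of -1.85. MX1, an antiviral GTPase, was at 6.06 and 6.08 CPM in 7TGP-NEG and at 133 and 129 CPM in 7TGP-POS in low serum (4.42 ± 0.077, adjusted p = 5.00e-36), and at 4.18 and 4.11 CPM against 8.99 and 8.07 CPM in standard serum. OAS2, an RNA sensor of this response, was at 9.49 and 7.93 CPM against 18.6 and 18.2 CPM in low serum (1.06 ± 0.089) and at 5.98 and 7.05 CPM against 0.738 and 0.768 CPM in standard serum (-3.17); its low serum value was 0.95 without replicate 2 of 7TGP-NEG and 0.98 without replicate 1 of 7TGP-POS. XAF1 and IFITM1 rose by 2.31 and 2.04 in low serum and fell by 3.07 and 2.18 on the log2 scale in standard serum. Not every such gene was higher in low serum: IFIT1 was at 167 and 162 CPM against 125 and 122 CPM (-0.43 ± 0.053), and ISG20 was a DEG lower (-1.15 ± 0.063). SAMD9 and SAMD9L (1.30 and 1.80) lie on 7q beside each other, where the neighbour median was 0.88.

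Cholesterol synthesis and uptake was the list with the lowest median, -0.51, with 0 of 32 genes higher and 5 lower (3 higher and 21 lower by edgeR's adjusted p). With DESeq2's size factors 8 of them were called and on the TPM scale 12. Their sum was 7668 and 7684 CPM in 7TGP-NEG and 4411 and 4471 CPM in 7TGP-POS, without overlap. HMGCS1, which makes HMG-CoA at the head of the pathway (chromosome 5, 43287572 to 43313614 on GRCh37), was at 1076 and 1052 CPM in 7TGP-NEG and at 186 and 190 CPM in 7TGP-POS (-2.51 ± 0.05, adjusted p = 6.45e-34). It lies on 5p, where its 50 neighbours had a median of -0.86. FDFT1, which makes squalene, was at 563 and 563 CPM against 272 and 268 CPM (-1.07 ± 0.049, adjusted p = 1.30e-21), and MSMO1, a sterol oxidase, at 250 and 259 CPM against 102 and 105 CPM (-1.31 ± 0.068, adjusted p = 1.09e-11). MVD and EBP both fell by 1.11 on the log2 scale. In standard serum the list's median was -0.23, with 2 DEGs lower.

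Fatty acid synthesis had 1 DEG higher and 2 lower of 24 (median -0.21), a share of 12.5% that was near the 10.5% over all genes tested. By edgeR's adjusted p 3 were higher and 14 lower. FADS2, a desaturase, fell from 976 and 960 CPM to 451 and 443 CPM (-1.13 ± 0.051, adjusted p = 6.03e-22) and ACSS2, which makes acetyl-CoA from acetate, from 189 and 184 CPM to 94.7 and 90.7 CPM (-1.02 ± 0.051, adjusted p = 2.35e-20). The higher one, ACSL5, rested on 18 and 25 counts against 47 and 40 (1.04 ± 0.24) and was at 0.71 without replicate 1 of 7TGP-NEG and at 0.95 without replicate 1 of 7TGP-POS. In the list of serine, one-carbon and ATF4 genes 2 of 40 were higher and 1 lower (median -0.28, with 10 higher and 20 lower by edgeR's adjusted p). That share of DEGs was 7.5%, against 10.5% over all genes tested. ALDH1L2, the mitochondrial formyltetrahydrofolate dehydrogenase, was at 0.49 and 0.524 CPM in 7TGP-NEG and at 16.4 and 17.9 CPM in 7TGP-POS (5.06 ± 0.18, adjusted p = 5.30e-25). Its cytosolic counterpart ALDH1L1 had 22 and 19 counts against 0 and 2, at least 6.61-fold lower (adjusted p = 1.00e-05). The enzymes of the same reaction thus moved in opposite directions. Both were low in 7TGP-NEG, where ALDH1L1 was at 0.673 and 0.663 CPM.

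Of 36 genes of glycolysis and hypoxia 2 were higher and 2 lower (median -0.09), and 8 were higher and 14 lower by edgeR's adjusted p. The share of DEGs, 11.1%, was near the 10.5% over all genes tested. SLC2A3, a glucose transporter, fell from 117 and 116 CPM to 12.8 and 14.8 CPM (-3.09 ± 0.069, adjusted p = 1.87e-32), and ALDOC by 1.10 on the log2 scale. ADM (adrenomedullin) rose from 23.3 and 22.8 CPM to 81.8 and 84.7 CPM (1.84 ± 0.062, adjusted p = 3.62e-26) and CA9 by 1.98, both known as hypoxia-induced genes. LDHA, at 543 and 546 CPM against 514 and 496 CPM, did not pass (-0.12 ± 0.052, adjusted p = 0.0501). None of 20 aminoacyl-tRNA synthetases and none of 48 genes of ribosome biogenesis was a DEG (by edgeR's adjusted p 6 higher and 9 lower, and 14 higher and 16 lower). Of 57 nuclear genes of the respiratory chain 0 were higher and 1 lower, NDUFS6, which lies on 5p (-1.85 ± 0.083, neighbour median -1.46).

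Mitotic genes were lower by small steps. Of 51 genes of G2/M and mitosis 0 were DEGs higher and 4 lower, but 43 were lower and 2 higher by edgeR's adjusted p, with a median of -0.49 and sums of 8616 and 8316 CPM in 7TGP-NEG against 6103 and 6227 CPM in 7TGP-POS. The share of DEGs was 7.84%, against 10.5% over all genes tested. By the adjusted p 25.3% of all genes tested were lower and 26.6% higher. KIF14, a mitotic kinesin, was at 258 and 244 CPM against 108 and 116 CPM (-1.17 ± 0.051, adjusted p = 1.41e-22), and PTTG1 (securin) at 122 and 128 CPM against 56.3 and 52.9 CPM (-1.21 ± 0.055, adjusted p = 1.23e-21). ASPM and KIF18A fell by 1.04 and 1.22 on the log2 scale, and CDK1 was at -0.78. CCNB1 (cyclin B1), at 168 and 173 CPM against 169 and 167 CPM, showed no detected change (-0.03 ± 0.051, adjusted p = 0.602). In standard serum the list's median was -0.15. Of 49 genes of DNA replication 2 were higher and 0 lower (8 higher and 19 lower by edgeR's adjusted p, median -0.11). This share of DEGs, 4.08%, was under the 10.5% over all genes tested. The higher ones included MCM7, a subunit of the replicative helicase that lies on 7q (1.04 ± 0.048, neighbour median 0.83, and 0.99 without replicate 1 of 7TGP-POS).

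Regulators of the entry into S phase split, with 2 of 18 higher and 2 lower (median -0.07). CCND2 (cyclin D2; chromosome 12, 4378937 to 4414519 on GRCh37) was at 95.7 and 99.7 CPM in 7TGP-NEG and at 24.4 and 24.4 CPM in 7TGP-POS (-2.01 ± 0.062, adjusted p = 1.97e-27). CDKN1A, the inhibitor p21, fell from 42 and 42.2 CPM to 18.3 and 19.6 CPM (-1.16 ± 0.065, adjusted p = 6.80e-19). CDK6, a partner of cyclin D2, rose from 14.8 and 14.3 CPM to 42.2 and 43.7 CPM (1.55 ± 0.071, adjusted p = 1.35e-21; neighbour median 0.90, on 7q), and MYCN rose by 2.28. Of 39 immediate-early and serum response genes 2 were higher (DUSP4 and SPRY1, both inhibitors of ERK signalling, by 1.19 and 1.41) and 1 lower (EGR4, -2.54 ± 0.39), with a median of -0.16. Their share of DEGs was 7.69%, against 10.5% over all genes tested.

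Stem-cell markers gave 5 of 27 higher and 2 lower (median 0.11). ALDH1A3, the aldehyde dehydrogenase behind much of the activity used to sort breast cancer stem cells, was at 566 and 555 CPM in 7TGP-NEG and at 251 and 259 CPM in 7TGP-POS (-1.15 ± 0.049, adjusted p = 7.51e-23). Its relative ALDH1A1 moved the other way, at 0.704 and 1.08 CPM against 2.59 and 2.51 CPM (1.52 ± 0.26, adjusted p = 4.27e-06). SOX2, NES and SALL4 rose by 1.25, 1.49 and 1.11, with BMP4 as the fifth; SALL4 was at 0.91 without replicate 2 of 7TGP-POS. ABCB1, a drug efflux pump, had 59 and 38 counts against 3 and 2, at least 15.5-fold lower (adjusted p = 3.34e-09), inside the stretch of 7q where neighbours had a median of 1.00. Among 37 HOX genes 5 were higher and 3 lower (median -0.18). HOXA7 rose from 0.306 and 0.244 CPM to 6.19 and 5.73 CPM (4.40 ± 0.27, adjusted p = 1.25e-17), while HOXA11, in the same cluster, fell from 6.61 and 6.39 CPM to 1.11 and 1.22 CPM (-2.50 ± 0.19, adjusted p = 2.41e-14).

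Many genes were present in one subline and at the floor in the other. A gene is at the floor where each library of a group holds 3 counts or fewer, and the fold is then a lower bound against 3 counts per library, which covers counting error only. Of the DEGs, 245 were at the floor in 7TGP-NEG and 52 at the floor in 7TGP-POS. With at least 1 CPM in the other group, these were 76 and 8 genes, and with at least 5 CPM 17 and 0. Of the 76 genes 75 were also DEGs higher in standard serum and all 8 of the others were DEGs lower there, whereas in MDA-MB-231 10 of the 76 were DEGs higher and 3 lower.

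SPIN4, a histone reader of the spindlin family, had 2 and 2 counts in 7TGP-NEG and 951 and 914 in 7TGP-POS, at least 319-fold higher (chromosome X, 62567107 to 62571211 on GRCh37). CBFB, the common partner of the RUNX factors, had 0 and 3 counts against 750 and 625, at least 234-fold higher (chromosome 16, 67062887 to 67134961). In MDA-MB-231 CBFB was at -0.23, and the difference between the lines passed the test (interaction adjusted p = 1.26e-28). CCDC8, PODXL2 and GDA followed LOXL1 in this class, with bounds of 136-fold, 107-fold and 85.9-fold. Zinc finger genes by symbol were 14 of the 76 (18.4%) and 515 of all genes tested (3.2%). ZNF718, ZNF502, ZNF736 and ZKSCAN7 had 0 and 1, 1 and 1, 0 and 0, and 1 and 3 counts in 7TGP-NEG, with bounds between 72.3-fold and 81.3-fold; ZNF502 and ZKSCAN7 lie on 3p, with a neighbour median of 0.60. By chromosome arm 9 of the 76 lie on 19p and 5 on 19q, a chromosome known for its zinc finger clusters. Of the 12585 genes tested that averaged at least 1 CPM, 418 lie on 19p and 485 on 19q. The genes of the 76 on this chromosome include CCDC8, PNMA8A and RGL3, which are not zinc finger genes by symbol. Zinc finger genes resemble each other, so their reads can be split between copies in counting, and their values are uncertain to that extent. Over all 515 zinc finger genes 41 were DEGs higher and 11 lower, with a median of 0.04. Over all genes tested 6.52% were DEGs higher and 4.03% lower, with a median of 0.01, so no rise of the whole family is read.

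In the other direction, SLC6A15, a transporter of branched-chain amino acids, had 122 and 99 counts in 7TGP-NEG and 0 and 0 in 7TGP-POS, at least 35.6-fold lower (adjusted p = 4.74e-14). FCAR, the IgA receptor, followed with a bound of 24.3-fold, and PCDH17, FZD10 and ABCB1 belonged to the same class. ZNF878, DIO1 and ALX1 completed the 8 genes, with bounds between 10.8-fold and 11.3-fold. ALX1, a homeobox gene of mesenchyme, and SLC6A15 had no count in either 7TGP-POS library, which allows a level of up to 0.101 CPM.

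**Figure D4:**
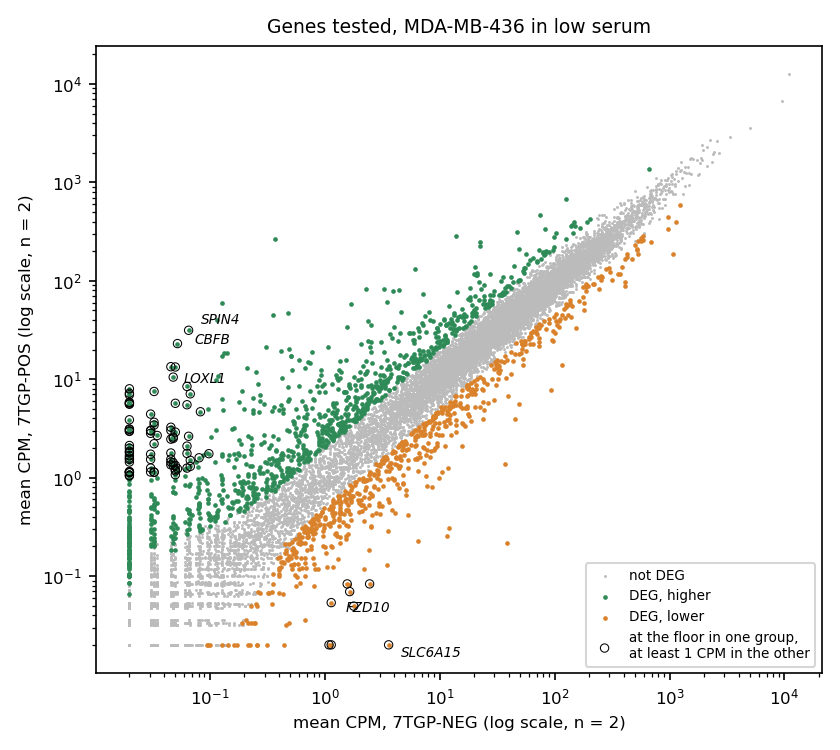
Mean CPM (n = 2) of each gene tested in 7TGP-NEG (x axis) and 7TGP-POS (y axis), both on log scales with a mean of 0 drawn at the lower edge, DEGs in green (higher) and orange (lower) and genes at the floor in one group with at least 1 CPM in the other circled. The 76 circled genes at the left edge, led by SPIN4, CBFB and LOXL1, outnumber the 8 at the lower edge, among them SLC6A15 and FZD10.

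Fold changes were not spread evenly over the chromosomes. Over the 12585 genes that averaged at least 1 CPM the median log2 fold change was -0.01, with 5.2% DEGs higher and 3.52% lower. On 5p the median over 98 genes was -1.18, with quartiles of -1.53 and -0.82; 4 genes were above 0, and 65 (66.3%) were DEGs lower. The standard serum median of 5p was -1.12, and that of MDA-MB-231 in low serum was 0.12. On 7q the upper quartile of 383 genes was 0.86 and 71 (18.5%) were DEGs higher, although the median was 0.14. The arms 7p, 3p and 16p had medians of 0.36, 0.33 and 0.31, and on 16p 87.3% of 306 genes were above 0. Of the 10 most abundant DEGs lower in 7TGP-POS, 6 lie on 5p: RPL37, CCT5, NUP155, HMGCS1, TRIO and NIPBL, with log2 fold changes of -1.07, -1.52, -1.53, -2.51, -1.50 and -1.18 and neighbour medians between -1.41 and -0.86. DNA copy number was not measured, and the part of position in each gene's value was not tested. Neighbour medians are given beside some of the genes named, and a missing value does not mean a flat neighbourhood. Among genes named without it, the neighbour median was -0.39 for CCND2, -0.35 for ASPM, -0.33 for COL3A1, 0.33 for BMP4 and 0.42 for CCL20.

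**Figure D5:**
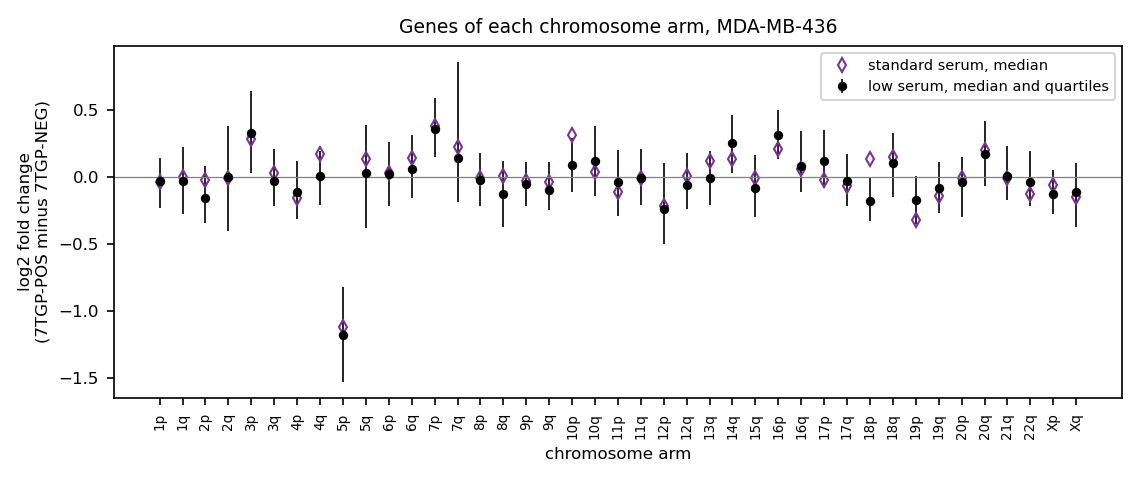
Median log2 fold change (7TGP-POS minus 7TGP-NEG) of genes with at least 1 CPM on each chromosome arm in low serum (black points, with lines from the lower to the upper quartile over genes) and the median in standard serum (open diamonds). The arm 5p stands apart at -1.18 in low serum and -1.12 in standard serum, and the upper quartile of 7q reaches 0.86.

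Among DEGs with at least 10 counts in every library, the largest rise was in ZNF320, a zinc finger gene on chromosome 19 (53364104 to 53400946 on GRCh37), at 0.582 and 0.384 CPM in 7TGP-NEG and at 43.1 and 51 CPM in 7TGP-POS (6.56 ± 0.14, adjusted p = 4.73e-33). VIPR1, a receptor of vasoactive intestinal peptide, rose from 2.42 and 2.2 CPM to 77 and 89.6 CPM (5.15 ± 0.098; neighbour median 0.58, on 3p), and PPARGC1A, a co-activator of mitochondrial biogenesis, from 0.459 and 0.559 CPM to 16.3 and 17.8 CPM (5.05 ± 0.17). ELAPOR2, LRCH2, SULF2, IGFBP7 and GRIK3 rose by 4.57 to 5.36 on the log2 scale, ELAPOR2 in the stretch of 7q with a neighbour median of 0.99. SULF2, a sulfatase that edits heparan sulfate and thereby frees Wnt ligands and growth factors, was at 3.18 and 3.42 CPM against 81 and 83 CPM. All 10 of these genes, LAMA4 and ALDH1L2 included, were also DEGs higher in standard serum.

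The largest fall was in SH3BGRL, which encodes a small SH3-binding protein, on chromosome X (80457601 to 80554046), from 39 and 35.9 CPM to 1.64 and 1.11 CPM (-4.76 ± 0.11, adjusted p = 2.22e-31). In MDA-MB-231 it rose by 0.61 (interaction adjusted p = 2.45e-30). ARHGAP4, a GTPase-activating protein, fell from 96.2 and 89.5 CPM to 6.92 and 8.78 CPM (-3.58 ± 0.083, adjusted p = 7.34e-32), and BCL11B, a transcription factor of mammary and lymphoid progenitors, from 7.78 and 7.61 CPM to 0.79 and 0.86 CPM (-3.23 ± 0.2, adjusted p = 1.95e-17). SPRN, VAT1L, SCG5 and LGI2 fell by 3.26 to 3.66 on the log2 scale. Among the most abundant DEGs higher in 7TGP-POS were PEG10, an imprinted gene of retrotransposon origin on 7q (1.42 ± 0.05, neighbour median 0.88), SVIL (supervillin, an actin-binding protein; 1.38 ± 0.05) and RPL13, a ribosomal protein gene (1.06 ± 0.056), which was at 0.99 without replicate 1 of 7TGP-NEG and at 0.93 without replicate 1 of 7TGP-POS. RPL13 and RPL37 have processed pseudogenes, with which reads can be shared in counting.

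The change in 7TGP-POS cells depended on the cell line for many genes. Of the 1884 interaction DEGs, 1126 (7.01% of genes tested) had the higher change in MDA-MB-436 and 758 (4.72%) the lower. Among genes that were DEGs with opposite signs in the lines, CCND2 had the lowest interaction p. It fell in MDA-MB-436 and rose in MDA-MB-231 from 28 and 30.1 CPM to 103 and 103 CPM (1.84). NNMT, a methyltransferase of nicotinamide, was at 31.4 and 33.2 CPM in 7TGP-NEG and at 11.8 and 11.6 CPM in 7TGP-POS of MDA-MB-436 (-1.48 ± 0.078, adjusted p = 1.40e-19), and at 14.3 and 15.3 CPM against 47.9 and 48.5 CPM in MDA-MB-231. PPL (periplakin), a protein of desmosomes and the cytoskeleton, rose in MDA-MB-436 from 18.9 and 17.9 CPM to 66.9 and 68.9 CPM (1.87 ± 0.069, adjusted p = 9.63e-25) and fell in MDA-MB-231 from 20.9 and 18.7 CPM to 9.83 and 8.82 CPM.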

How the data were processed

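RNA of MDA-MB-436 7TGP-POS and 7TGP-NEG cultures was sequenced by the authors, aligned with STAR (2.6.1a per the labels) to hg19 and counted per gene on the Gencode v19 annotation. The deposited counts are raw, without normalization, and the deposited TPM values were computed by the authors. The low serum and standard serum tables were not mixed. IDs were matched to Gencode on GRCh37 (55538 of 57820), and a protein-coding gene was kept where its counts over the 8 libraries of low serum summed to 10 or more. The 4 groups were fitted in one model with edgeR (4.0.16, quasi-likelihood, TMM) in R 4.3.3, with p-values adjusted after Benjamini and Hochberg; SE is the absolute log2 fold change over the square root of F. DESeq2 (1.42.0) and limma (3.58.1, log2(TPM + 1)) served as alternatives, with leave-one-out fits, filters, size factors and a replicate block. On simulated data of 15919 genes, 100% of 4-fold and 41% of 2-fold changes, which lie at the log2 threshold of 1, were called DEGs (93% of the latter passed the adjusted p), with 1 false call among 15719 unchanged genes. The changed genes were drawn only from genes above a minimum mean count, so these shares do not cover genes with few counts. Replicate numbers do not pair the samples.

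Members and lists were chosen with earlier results of these data known, so the lists are no independent evidence. Of 1370 list symbols 1355 were matched; the other 15 were not analysed here. Named genes are, per list, up to 8 DEGs of lowest adjusted p, the 10 largest changes with at least 10 counts in every library, the 10 highest on or off genes, the 10 most abundant DEGs per direction, 10 Wnt genes fixed by name, the 5 strongest opposite interactions and members of counts of 5 or fewer; further genes, such as TNFRSF19, MMP7, genes of the marker lists, CXCL2, CXCL3, CXCL5, CX3CL1, MYL9 and the 8 genes at the floor in 7TGP-POS, were chosen after their values were seen. Some genes that this rule names are not reported here. A bound against the floor of 3 counts per library covers counting error only. Promoters are RefSeq records on GRCh38.p14, not the build of the counts.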

Additional observations from a re-analysis of the deposited data

Results flagged for a closer look

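The difference between the cell lines was tested in the same model, and 1884 genes passed as DEGs of the interaction, MDA-MB-436 minus MDA-MB-231. Among the genes with the lowest interaction p of those that were DEGs of opposite sign in the lines were CCND2 with an interaction log2 value of -3.85 (edgeR adjusted p = 1.81e-31), NNMT with -3.19, PPL with 2.95 and PDZK1IP1 with -3.62. In each of these genes the 2 libraries of 7TGP-POS lay on one side of the 2 of 7TGP-NEG in MDA-MB-436 and on the other side in MDA-MB-231. This separation follows from how the genes were chosen and adds no evidence of its own. Groups of 2 libraries were too small for a search for single libraries that stand apart.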

How the results depend on the processing

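The count of 1694 DEGs was between 1370 and 2377 with size factors, DESeq2's Wald test (1425), other filters, all biotypes, the MDA-MB-436 libraries alone or another prior count. It was 922 (606 higher, 316 lower) in a test against a log2 fold change of 1, 793 (322 higher, 471 lower) with limma-trend on log2(TPM + 1), and 8348 (4277 higher, 4071 lower) by the adjusted p alone. On the TPM scale 672 of the 1694 genes (39.7%) were called in the same direction, and with DESeq2's Wald test 1388 (81.9%). Without 1 library the count was 1578 to 1620, with 934 to 970 higher and 608 to 686 lower, and the interaction count 1770 to 1846. No named DEG reversed under any alternative run. DESeq2's Wald test ended the calls of WNT7A, RSPO2, PTPN20B, MMP7, TGFB3, KRT14, SOX9, JAG1 and OVOL2, and ESR1 was called without replicate 1 of 7TGP-NEG (fitted log2 fold change 6.18, which depends on the prior count because the remaining 7TGP-NEG library had 0 counts). Among named genes that were no DEGs, the log2 fold change reversed on the TPM scale for VIM (-0.08), NOTCH1 (-0.10), CXCL2 (-0.17), CDH2 (-0.18) and ZNRF3 (-0.06), and with 1 library left out it ranged from -0.02 to 0.07 for CDH2, from -0.23 to 0.70 for LGR5, from -0.37 to 1.02 for CDH1 and from -1.21 to 3.62 for CDH5, both cadherins with 5 counts or fewer in each library. The cause was not tested. Of changes under 1 CPM, many rest on few counts.

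The replicate numbers of the labels did not pair the samples (the deviations of 7TGP-NEG and 7TGP-POS correlated with r = -0.116). With the replicate block 1667 genes were DEGs (1030 higher, 637 lower) and 1854 in the interaction, and of the named calls those of PTPN20B and MMP7 were lost. A crossed block, chosen after seeing the data, gave 1695 and 1912.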
